A study of Solanum tuberosum with 9 samples.

Results

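Nitrate reductase and nitrite reductase are the enzymes that turn nitrate into ammonium in plant cells. Their genes in potato were followed here as 2 rows of the deposited tables, NR3 (nitrate reductase) and NIR (nitrite reductase), chosen by name out of 25702 genes. RNA was sequenced from stolons, which are stems that grow below ground and form tubers at their ends, of the potato variety Kexin 13. Plants grew under nitrogen deficiency (AN0), conventional nitrogen (AN1) or excess nitrogen (AN2), with 3 libraries per treatment and 9 in all. The labels give neither the chemical form nor the amount of the nitrogen, and do not say whether each library came from its own plants. The p-values therefore measure only how these libraries scatter, and that scatter may be technical.

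Nitrate reductase works in the cytosol, where it passes electrons from NADH or NADPH through FAD, heme and a molybdenum cofactor to nitrate and releases nitrite. Nitrite reductase works in plastids, where it takes electrons from ferredoxin and uses siroheme to reduce the toxic nitrite to ammonium, which glutamine synthetase then binds into glutamine. In many plants nitrate itself, sugars and light raise the transcripts of both genes, and nitrate reductase protein is switched off by phosphorylation and binding of 14-3-3 proteins.

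The reference annotation lists NR3 as RefSeq gene 102577728, with the synonyms StNR2, StNR5 and StNR6, so that several nitrate reductase names fall on this 1 entry. NIR is RefSeq gene 102581851 and carries no synonym. Dividing counts by FPKM (counts per kilobase of gene, scaled to the library total) gave a gene length of 3105 bases for NR3 and 1764 bases for NIR. How the authors' counting treated reads from similar gene copies or the opposite strand is not given in the sources used here, so both values are uncertain to that extent.

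The libraries held between 30952622 and 38235348 counts. AN0-1 and AN2-3 stood apart from the rest. The 7 green tissue genes (photosystem, chlorophyll-binding and Rubisco small subunit genes) together reached 747 CPM in AN0-1 and 569 in AN2-3, while the other 7 libraries held 10.1 to 90.7 CPM. CPM here are library-scaled counts with TMM factors, which correct for differences in composition. In AN0-3 the list had 5 of its 7 genes without a count. The storage protein patatin (LOC102605260) took 0.357% of the AN0-1 counts and 0.0485% of those of AN2-3, where the other libraries gave it 1.06% to 1.80%. The other storage tissue gene listed, GBSS, was low only in AN2-3 (187 CPM). In AN0-1 it had 3735 CPM, below AN0-2 and AN0-3 (5466 and 7300 CPM) but above the AN1 libraries (2091 to 3328 CPM). Fold changes and ratios of NR3 and NIR are therefore also given without AN0-1 and AN2-3. In bulk tissue, fewer cells of a type and less RNA per cell cannot be told apart.

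Nitrate reductase transcripts stood highest under deficiency and lowest under excess. NR3 had 932, 472 and 651 counts in the 3 AN0 libraries, 69, 96 and 62 counts in the AN1 libraries, and 36, 46 and 8 counts in the AN2 libraries. On the TMM-scaled scale these were 25.8, 13.5 and 19.4 CPM in AN0, 2.26, 3.04 and 1.71 CPM in AN1, and 0.878, 1.43 and 0.213 CPM in AN2. No library of one treatment overlapped with another treatment, and the levels stepped down with each rise in nitrogen supply. Of the 21223 genes tested, 176 (0.829%) showed the same stepwise pattern without overlap. The lowest NR3 level, in AN2-3, rested on 8 counts, for which the exact Poisson 95% interval runs from 3.45 to 15.8 counts (counting error only).

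Nitrite reductase transcripts were also highest under deficiency, but conventional and excess supply could not be separated. NIR had 450, 304 and 95 counts in AN0, 33, 20 and 8 counts in AN1, and 17, 14 and 26 counts in AN2. These were 12.5, 8.72 and 2.83 CPM in AN0, 1.08, 0.633 and 0.221 CPM in AN1, and 0.415, 0.434 and 0.694 CPM in AN2. All AN0 libraries lay above all others, while the AN2 libraries fell inside the range of the AN1 libraries. Every AN0 library lay above every AN1 library in 9.54% of genes, and above every AN2 library in 10.0%. The share of genes with both was not counted. Within AN0 the highest library held 4.40 times the level of the lowest for NIR, against 1.91 times for NR3.

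**Figure D1:**
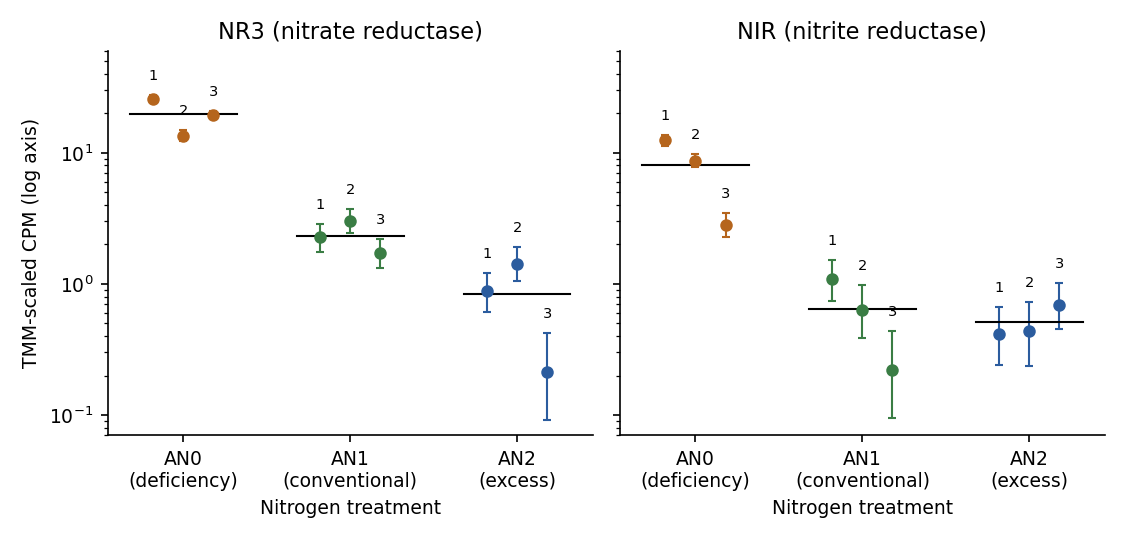
TMM-scaled CPM (log axis) of NR3 and NIR in each library of AN0, AN1 and AN2, with exact Poisson 95% intervals for counting error and the group mean as a black line (n = 3 each). NR3 steps down over the 3 treatments without overlap, while the NIR points of AN2 (0.415 to 0.694 CPM) lie within the range of AN1 (0.221 to 1.08 CPM).

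Both genes were weakly to moderately expressed in stolons. Per length, NR3 averaged 6.07 ± 2.22 FPKM in AN0, 0.725 ± 0.222 FPKM in AN1 and 0.280 ± 0.176 FPKM in AN2 (SD, n = 3 each). NIR averaged 4.40 ± 2.85 FPKM in AN0, 0.351 ± 0.232 FPKM in AN1 and 0.327 ± 0.132 FPKM in AN2. In AN0 the NR3 level exceeded that of 51.1% to 62.0% of all genes, in AN1 that of 27.6% to 33.6%, and in AN2 that of 12.6% to 26.5%. For NIR these shares were 38.1% to 59.0% in AN0, 17.7% to 28.9% in AN1 and 20.5% to 22.2% in AN2. Both genes thus lay near the middle of the expression range under deficiency and in its lower part otherwise. Their libraries scattered more than those of most genes. The pooled SD within treatments was 0.81 log2 units for NR3 and 0.90 for NIR, beside a median of 0.46 over all genes tested, and was larger than in 81.4% and 85.0% of them.

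Excess against deficiency was the comparison in which both genes passed the test. NR3 averaged 0.84 ± 0.61 CPM in AN2 and 19.6 ± 6.15 CPM in AN0 (SD, n = 3 each), a level 23.4-fold lower, with a log2 fold change of -4.55 ± 0.62 (SE) and a 95% interval from -5.94 to -3.16 (quasi-likelihood test of edgeR with Benjamini-Hochberg adjustment, adjusted p = 0.00965). NIR averaged 0.514 ± 0.156 CPM in AN2 and 8.01 ± 4.86 CPM in AN0, a level 15.5-fold lower, with a log2 fold change of -3.95 ± 0.71 and an interval from -5.54 to -2.36 (edgeR adjusted p = 0.0244). Both genes were called lower. Over all genes tested the test called 3.65%, of which 2.35% were higher and 1.3% lower in AN2. By p, NR3 stood at place 74 and NIR at place 253 of 21223. All AN2 libraries lay below all AN0 libraries for both genes, as for 10.0% of genes.

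The call of NR3 in this comparison held in all 23 alternative analyses, with an adjusted p of at most 0.0493 (edgeR and other tools). Without AN2-2 its log2 fold change was -5.15, and without AN0-1 and AN2-3 together it was -3.83 ± 0.43 (edgeR adjusted p = 0.0252). NIR kept its call in 16 of the 23. The 7 losses include those without AN0-1 (edgeR adjusted p = 0.0518), without AN0-2 (0.0798), without AN2-1 (0.0946) and without AN2-3 (0.0522), as well as without AN0-1 and AN2-3 together (0.0670) and with the 2 groups fitted alone (0.0501). Its log2 fold change stayed between -4.36 and -3.48 in all fits to counts.

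Deficiency against conventional supply gave differences of a similar order that did not pass the threshold. NR3 averaged 19.6 ± 6.15 CPM in AN0 and 2.34 ± 0.67 CPM in AN1, 8.37-fold higher in AN0, with a log2 fold change of 3.07 ± 0.57 and a 95% interval from 1.78 to 4.35 (edgeR adjusted p = 0.134). NIR averaged 8.01 ± 4.86 CPM in AN0 and 0.646 ± 0.431 CPM in AN1, 12.4-fold higher in AN0, with a log2 fold change of 3.63 ± 0.70 and an interval from 2.07 to 5.20 (edgeR adjusted p = 0.134). The unadjusted edgeR p-values were 0.000399 and 0.000482, at places 60 and 73 among the genes tested. The test called 0.0471% of all genes here, 8 of them higher in AN0 (0.0377%) and 2 lower (0.00942%), and neither NR3 nor NIR was among them. DESeq2, which called 3.05% of the genes it tested here, called both (adjusted p = 1.27e-05 for NR3 and 1.02e-05 for NIR). For both genes the lowest AN0 library exceeded the highest AN1 library, as in 9.54% of genes. By edgeR NR3 was called without AN2-3 (adjusted p = 0.0394), and NIR without AN0-3 (0.0358), the AN0 library with the lowest NIR level. Each gene was called in only 1 of the edgeR fits that left out a single library. The highest edgeR adjusted p among these fits was 0.498 for NR3 and 0.490 for NIR. Without AN1-1, the AN1 library with the most NIR, the NIR level was 18.7-fold higher in AN0 (edgeR adjusted p = 0.423).

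Excess against conventional supply separated the pair in size but not by a test. NR3 averaged 0.84 ± 0.61 CPM in AN2 and 2.34 ± 0.67 CPM in AN1, with a log2 fold change of -1.48 ± 0.56 and a 95% interval from -2.75 to -0.21 (unadjusted p = 0.0265, edgeR adjusted p = 0.279). All AN2 libraries lay below all AN1 libraries, as for 9.26% of genes. NIR averaged 0.514 ± 0.156 CPM in AN2 and 0.646 ± 0.431 CPM in AN1, with a log2 fold change of -0.32 ± 0.67 and an interval from -1.82 to 1.18 (edgeR adjusted p = 0.917). That interval holds both a fall of the size seen for NR3 and a rise of more than 1 log2 unit, so the counts do not settle a direction for NIR. Its fold change also turned positive without AN1-1 (0.27). For NR3 the log2 fold change was -2.09 without AN2-2. With both AN0-1 and AN2-3 left out it was -1.003 ± 0.38 for NR3 and -0.57 ± 0.74 for NIR. The test called 0.697% of all genes here, and neither of the pair was called. This comparison and the deficiency comparison share the AN1 libraries.

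**Figure D2:**
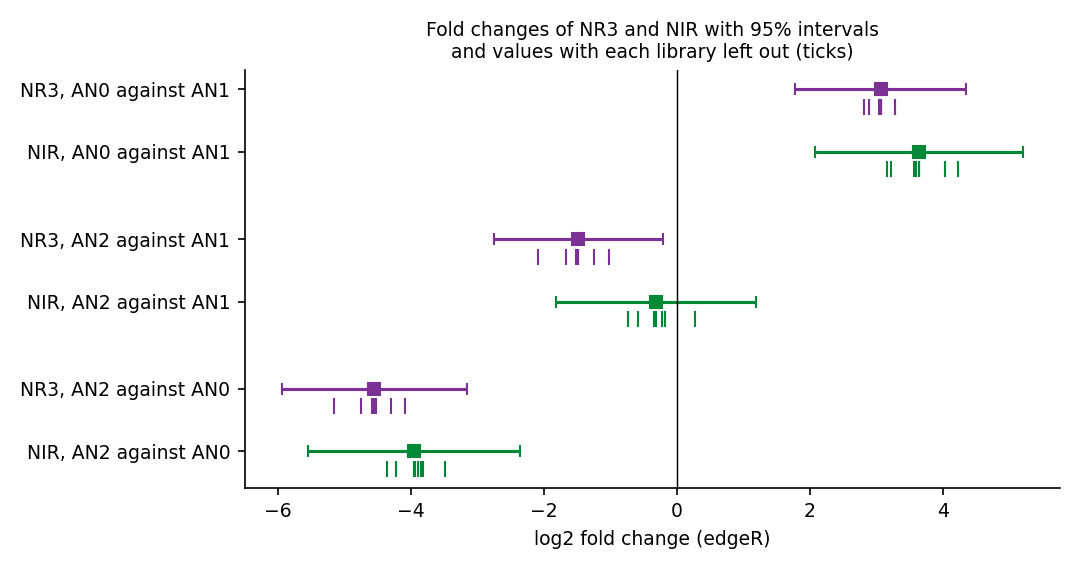
Log2 fold changes of NR3 and NIR in the 3 comparisons (edgeR, squares) with 95% intervals, and below each the values with each library left out in turn (ticks). The NIR interval for AN2 against AN1 spans 0 (-1.82 to 1.18), and all ticks for AN2 against AN0 lie at or below -3.48.

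Whether the 2 steps of nitrate reduction moved by the same factor was asked through their ratio within each library, in which sequencing depth and scaling drop out. The NR3 level was 1.18, 0.882 and 3.89 times the NIR level per length in AN0-1, AN0-2 and AN0-3. It was 1.19, 2.73 and 4.40 times the NIR level in AN1-1, AN1-2 and AN1-3, and 1.20, 1.87 and 0.175 times in AN2-1, AN2-2 and AN2-3. The ratio thus ranged widely within each treatment and the groups overlapped. In AN2-3 nitrite reductase clearly outweighed nitrate reductase, with an exact binomial 95% interval of the ratio from 0.0684 to 0.398 (counting error only).

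The ratio did not differ between treatments beyond its spread (exact permutation test over the 3 groups, p = 0.339, with 0.00357 the smallest possible). The mean log2 ratio of counts was 0.37 ± 1.77 in AN2 and 2.06 ± 0.93 in AN1 (SD, n = 3 each), a difference of -1.69 (two-sided exact permutation p = 0.3, adjusted over 3 pairs 0.6). It was 0.37 ± 1.77 in AN2 and 1.48 ± 1.13 in AN0, a difference of -1.12 (exact permutation p = 0.6, adjusted 0.6). For AN0 against AN1 the means were 1.48 ± 1.13 in AN0 and 2.06 ± 0.93 in AN1, a difference of -0.57 (exact permutation p = 0.5, adjusted 0.6). With 3 libraries against 3 the smallest possible p is 0.1, so these pairs could not have passed. Leaving out AN2-3 brought the differences of AN2 to -0.68 against AN1 and -0.11 against AN0. Without AN0-1 and AN2-3 together they were -0.68 for AN2 against AN1, -0.33 for AN2 against AN0 and -0.35 for AN0 against AN1.

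**Figure D3:**
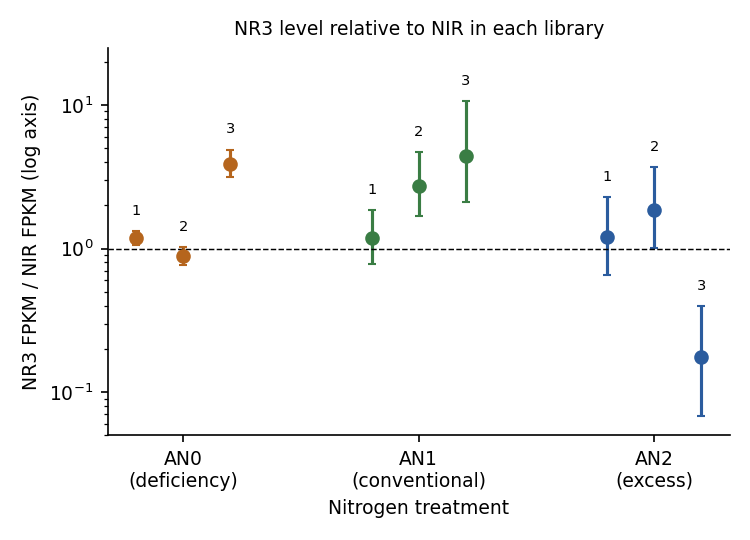
NR3 FPKM divided by NIR FPKM (log axis) in each library of AN0, AN1 and AN2, with exact binomial 95% intervals for counting error and a dashed line at equal levels. AN2-3 (0.175) is the only library whose interval lies wholly below 1, and the other 8 ratios run from 0.882 to 4.40.

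The 2 libraries rich in green tissue transcripts sat at opposite ends for nitrate reductase. PSBR, a subunit of photosystem II, reached 279 CPM in AN0-1 and 299 in AN2-3, and no other library exceeded 80.4 CPM. The chlorophyll-binding protein gene cab1 (LOC102596966) reached 243 CPM in AN0-1 but 5.63 in AN2-3, and had no count in 4 libraries. The part of green tissue in the results was not tested beyond leaving these libraries out. NR3 was highest of all in AN0-1 (25.8 CPM) and lowest of all in AN2-3 (0.213 CPM). NIR was highest in AN0-1 within AN0 and highest in AN2-3 within AN2, but in AN1 it was lowest in AN1-3, the AN1 library with the most PSBR (46.5 CPM). Without AN0-1 and AN2-3 the log2 fold changes for AN0 against AN1 were 2.83 ± 0.35 for NR3 and 3.16 ± 0.69 for NIR, and for AN2 against AN0 they were -3.83 ± 0.43 and -3.73 ± 0.82.

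Likeness of other genes to the pair over the 9 libraries was measured as the root mean square difference in log2 CPM after centring each gene on its mean, for which the median gene lay at 2.12 from NR3 and 1.89 from NIR. The pair lay 1.21 log2 units apart. NIR was number 4 among the 450 other named genes seen from NR3 (order 91 among all 21222), and NR3 was number 7 seen from NIR (order 182). LOC102588954, the fructose-1,6-bisphosphatase of the cytosol on the way to sucrose, was near to both, at 1.12 from NR3 and 1.10 from NIR. It had 14.5, 11.0 and 10.8 CPM in AN0, 3.87, 2.19 and 5.08 CPM in AN1, and 1.32, 2.27 and 1.73 CPM in AN2. It was highest in the AN0 libraries and called lower in AN2 than in AN0 (-2.77 ± 0.38, edgeR adjusted p = 0.00965), and its AN2 and AN1 libraries overlapped. Because it was picked for its likeness to the pair over these libraries, this call is not separate support.

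The nearest of all genes to NIR was PDR2, a transporter of the ABC family, at 0.42 log2 units, and it was also the nearest named gene to NR3 (1.09). It was sparsely counted, with 56, 36 and 17 counts in AN0, 4, 1 and 1 in AN1 and 0, 0 and 2 in AN2. The other named genes nearest to NR3 were GBSS, the starch synthase that makes amylose (1.17), and the lipoxygenase LOC102598541 (1.22). Those nearest to NIR were a sparsely counted pathogenesis-related gene of the PR-5 family (1.05), the vacuolar processing enzyme VPE2 (1.11) and the hydroperoxide lyase HPL (1.17). The nearest genes were found on the same 9 libraries as the pair, so their order and their differences between treatments are a description only.

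**Figure D4:**
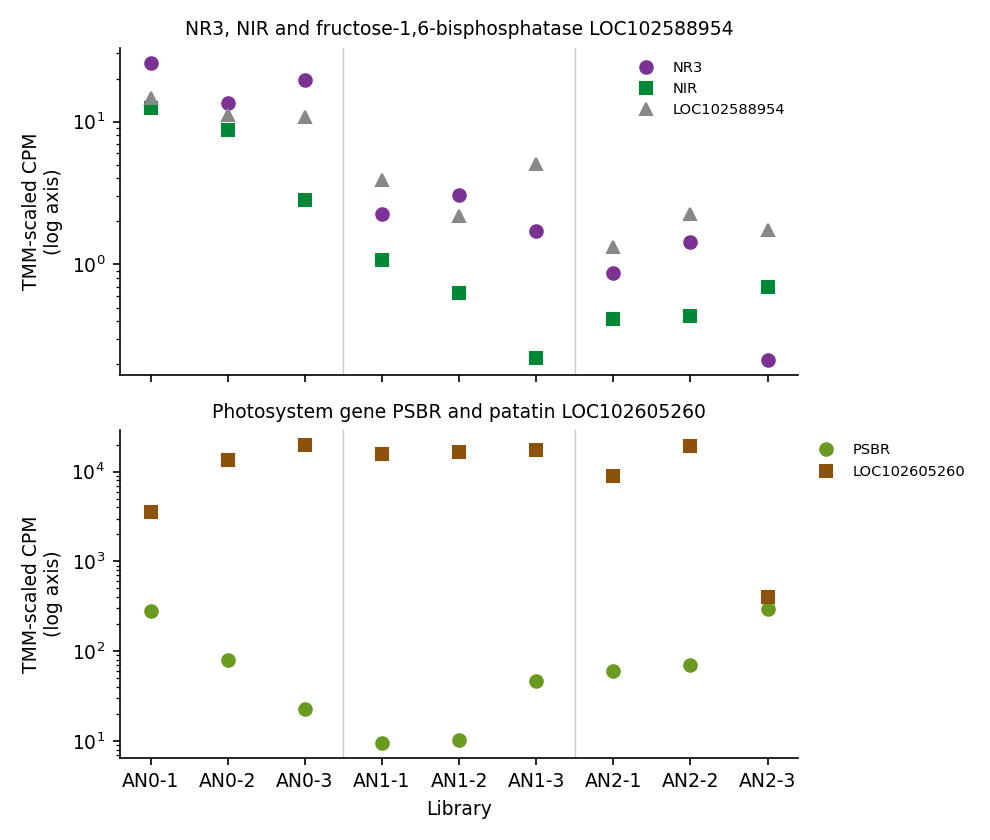
TMM-scaled CPM (log axis) per library. The upper panel shows NR3, NIR and the fructose-1,6-bisphosphatase LOC102588954, all 3 higher in every AN0 library than the same gene in any AN1 or AN2 library. LOC102588954 was picked for its likeness to the pair over these libraries. Over all genes, AN0 lay wholly above AN1 in 9.54% and wholly above AN2 in 10.0%. The lower panel shows PSBR and patatin LOC102605260, in which AN0-1 and AN2-3 stand apart.

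Other genes of the pathway differed less than the reductases in both comparisons with AN0, but not in AN2 against AN1. Lists by symbol and synonym gave 9 genes beside the pair, all 9 of them tested, and no named gene for nitrate transport, ammonium transport or nitrate-response regulators. For AN2 against AN0, in which both reductases fell, 4 of the 9 had positive and 5 negative log2 fold changes, between -0.46 and 0.74 with a median of -0.16, beside 0.01 over all genes. None of the 9 was called there by edgeR or by DESeq2, which called 11.8% of the genes it tested, and 0 had an unadjusted p under 0.05, beside 20.4% of all genes. For AN0 against AN1, 7 of 9 were positive, between -0.42 and 1.38 with a median of 0.58, beside 0.02 over all genes. There edgeR called 0, DESeq2 called 1 (aap1) and 1 had an unadjusted p under 0.05, beside 10.8% of all genes. For AN2 against AN1, 5 of 9 were positive, between -0.25 and 1.77 with a median of 0.12, beside 0.02. There edgeR called 0, DESeq2 called 1 (again aap1, beside 5.37% of the genes it tested) and 3 had an unadjusted p under 0.05, beside 13.8% of all genes.

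Glutamine synthetase takes up the ammonium made by nitrite reductase, and its 2 entries differed widely in level. The entry LOC102596783 averaged 141 ± 13.1 FPKM in AN0, 107 ± 10.0 FPKM in AN1 and 122 ± 45.3 FPKM in AN2, against 0.280 to 6.07 FPKM for the means of NR3. Its log2 fold change was -0.45 ± 0.24 for AN2 against AN0 (edgeR adjusted p = 0.326) and 0.41 ± 0.24 for AN0 against AN1 (0.593). A second entry with the same synonym gln, LOC102603663, averaged 4.19 ± 1.37 FPKM in AN0, 1.60 ± 0.788 FPKM in AN1 and 4.07 ± 3.52 FPKM in AN2. It had 8.59, 7.66 and 4.77 CPM in AN0, 2.82, 1.27 and 3.98 CPM in AN1, and 5.17, 1.21 and 10.2 CPM in AN2. Like NR3 and NIR it was higher in all AN0 libraries than in any AN1 library, as were 9.54% of genes. It did not pass the test (log2 fold change 1.38 ± 0.68, edgeR adjusted p = 0.510). AN2 overlapped with AN0 (-0.34 ± 0.67, edgeR adjusted p = 0.828) and with AN1 (1.04 ± 0.68, edgeR adjusted p = 0.582).

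Amino acid permeases, which carry amino acids across the plasma membrane, had higher mean values under both extremes of supply than under conventional supply. The permease aap1 (LOC102597666) had 19.8, 20.4 and 19.4 CPM in AN0 and 7.52, 10.7 and 8.34 CPM in AN1, without overlap (log2 fold change 1.17 ± 0.28, edgeR adjusted p = 0.194). In AN2 it had 20.6, 15.5 and 31.9 CPM, again above all AN1 libraries (1.36 ± 0.28, edgeR adjusted p = 0.0664). Every AN0 library lay above every AN1 library in 9.54% of genes, and every AN2 library did so in 13.3%. DESeq2 called aap1 in both (adjusted p = 0.00909 and 0.000765). AAP2, the member with the higher mean FPKM, had log2 fold changes of 1.03 ± 0.65 for AN0 against AN1 (edgeR adjusted p = 0.634) and 1.77 ± 0.66 for AN2 against AN1 (0.272). Its AN0 and AN1 libraries overlapped, while all its AN2 libraries lay above all its AN1 libraries. Unlike NR3 and NIR, both permeases had a positive log2 fold change for AN2 against AN0, of 0.19 ± 0.27 and 0.74 ± 0.65 (edgeR adjusted p = 0.750 and 0.574).

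The remaining lists concern the control of nitrate reductase and its supply of electrons. The 14-3-3 proteins 16R and LOC102580127 (30G) had log2 fold changes of -0.46 ± 0.41 and 0.27 ± 0.33 for AN2 against AN0, and 0 of 2 were called by edgeR or DESeq2 in any comparison, with 0 at an unadjusted p under 0.05. The entries for glucose-6-phosphate dehydrogenase, which feeds reductant to nitrite reductase in non-green plastids, numbered 3, of which edgeR and DESeq2 called 0 throughout. The most abundant, LOC102595038, averaged 431 ± 50.1 CPM in AN2 and 567 ± 49.3 CPM in AN0 (log2 fold change -0.40 ± 0.23, edgeR adjusted p = 0.376). Another, LOC102594145, was highest in AN2-3 (36.6 CPM) and AN0-1 (20.7 CPM), the libraries with the highest green tissue sums, and had an unadjusted p of 0.0366 for AN2 against AN1 (edgeR adjusted p = 0.319).

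**Figure D5:**
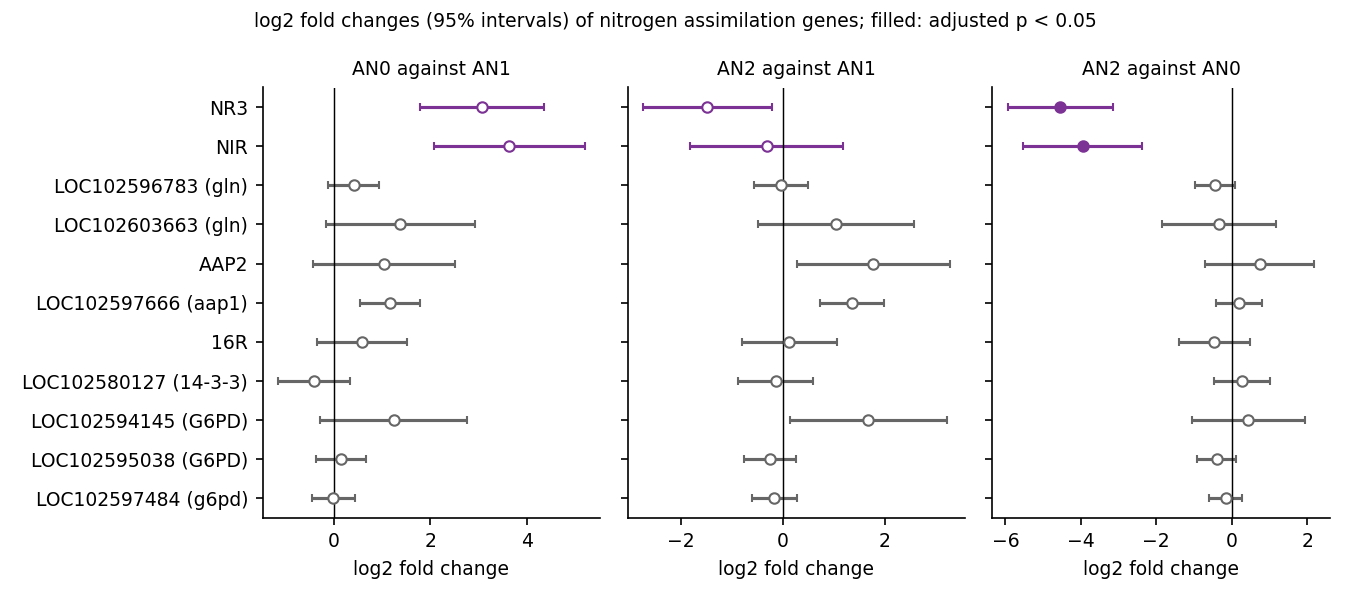
Log2 fold changes with 95% intervals (edgeR) of NR3, NIR and the 9 other genes of nitrogen assimilation and its control, with filled points where the adjusted p was under 0.05. Filled points occur only for NR3 and NIR in AN2 against AN0, and the 9 other genes lie between -0.46 and 0.74 there.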

How the data were processed

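Counts per gene (whole numbers, not normalized) and FPKM were deposited for 25702 genes in 9 libraries. Tools listed in the submitters' processing notes are HTSeq, HISAT2, fastp, DESeq2 and R 3.2.0, with no role stated. Genome build, annotation and strand setting: not given in the sources used here. The deposited FPKM equal count over gene length and library total, with a largest relative difference of 1.71e-07. Gene names came from RefSeq, assembly SolTub_3.0, in which 25672 IDs matched and 477 carry a name other than a locus number.

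Counts were tested with glmQLFTest of edgeR 4.0.16 (R 4.3.3), with TMM factors, filterByExpr (21223 genes kept) and 1 model of all 9 libraries with a mean per treatment. Calls are Benjamini-Hochberg adjusted p under 0.05. The SE was taken from the fold change and F statistic. The procedure was tested on counts simulated with the same dispersion for all genes and no outlying libraries, a simpler setting than these data. Alternatives used DESeq2 1.42.0, limma 3.58.1 (voom, and log2 of FPKM plus 1 or 0.1), other scalings and filters, and left-out libraries.

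The members and lists were chosen with earlier results of these data known. Genes named are the members, their 5 nearest named genes on log2 CPM (prior count 2), called members and the most abundant member of each pathway list, and markers. Near copies by protein identity were not looked for here. The lists of 34G and 35G, kinases, ammonium release and carbon skeletons were added after the gene names had been seen. Other genes with values, such as LOC102603663, LOC102594145 and those of the added lists, were named after their values were seen. Log2 count ratios and their tests took counts plus 0.5, and the ratios per length took the counts as deposited. No 2 libraries of a treatment agreed within sampling noise (chi-square per degree of freedom at least 38.3).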

Additional observations from a re-analysis of the deposited data

How the results depend on the processing

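Over 23 alternatives NR3 kept its direction in every comparison. With single libraries left out, the log2 fold changes for AN0 against AN1 ran from 2.81 to 3.28 (NR3) and from 3.16 to 4.23 (NIR). For AN2 against AN1 they ran from -2.09 to -1.02 and from -0.74 to 0.27. For AN2 against AN0 they ran from -5.15 to -4.09 and from -4.36 to -3.48. For AN0 against AN1, calls appeared with DESeq2 (3.06 for NR3, 3.63 for NIR), voom (2.98 and 4.35) and, for NR3, limma on log2(FPKM + 1) (1.99). For AN2 against AN1 voom called NR3 (-1.21, adjusted p = 0.0475), and NIR turned positive with voom (0.25), with limma on log2(FPKM + 0.1), filtered or not (0.024), and with the replicate block (0.0070). For AN2 against AN0 the NIR call ended with the 2 groups alone (-3.97), without AN0-1 and AN2-3 (-3.73) and with the replicate block (-3.62, edgeR adjusted p = 0.0681). The cause was not tested. On log2(FPKM + 1), a scale that understates the change of low genes, the values for AN2 against AN0 were -2.43 for NR3 and -1.87 for NIR, both called. The block changed no other call of the pair. Deviations of same-numbered libraries from their group means correlated at -0.47 to 0.08 over 9 pairs. Of 9 libraries, 2 correlated best with their own number. AN0-1 and AN2-3, which differ in number, correlated at 0.50. The labels do not state a pairing by replicate number, and these correlations cannot exclude one.

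Counts of calls were 10, 148 and 774 for AN0 against AN1, AN2 against AN1 and AN2 against AN0. They were 656, 1235 and 2726 by DESeq2, 1025, 5254 and 5881 by voom, 0, 45 and 119 with 2 groups alone, 0, 5 and 166 with the block, and 0, 15 and 296 without AN0-1 and AN2-3. With single libraries left out they ran from 0 to 109, from 0 to 367 and from 110 to 1077. Limma on log2(FPKM + 0.1) gave 3 and 285 for the comparisons with AN1 (0 and 297 unfiltered), and on log2(FPKM + 1) 375 for AN2 against AN1. Library totals alone gave 0 for AN0 against AN1, and moved the median log2 fold change of all genes by AN2 against AN0 to 0.22, against 0.01 with TMM, with 723 higher and 211 lower calls in place of 498 and 276. NIR counts of 8 to 33 in AN1 and AN2 limit what could be seen there.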

Other observations

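Genes beside nitrate reduction were described by lists filled after the gene names had been seen. In potato, urease (LOC102582144) and its accessory protein ureG (LOC102586140) release ammonium from urea, and the glycine decarboxylase subunits release it in photorespiration. SHMT, which works beside these subunits in photorespiration, was counted in the same list. All 5 genes of this list had positive log2 fold changes for AN0 against AN1, with a median of 0.90, beside 0.02 over all genes. Of the 5, edgeR and DESeq2 called 0 there, and 4 had an unadjusted p under 0.05, beside 10.8% of all genes. For AN2 against AN1, 4 of 5 were positive with a median of 0.45, and 1 had an unadjusted p under 0.05, beside 13.8% of all genes. For AN2 against AN0, 4 of 5 were negative with a median of -0.51, and 1 had an unadjusted p under 0.05, beside 20.4%. The ureG gene had 79.9, 46.4 and 78.1 CPM in AN0 and 38.0, 27.9 and 43.4 CPM in AN1, and in AN2 79.1, 66.8 and 74.0 CPM, so that AN1 was lowest without overlap. Over all genes, every AN0 library lay above every AN1 library in 9.54%, and every AN2 library did so in 13.3%. For AN2 against AN1 the log2 fold change of ureG was 1.01 ± 0.26 (edgeR adjusted p = 0.125, DESeq2 adjusted p = 0.0229). SHMT reached 66.1 CPM in AN0-1 but 8.14 in AN2-3, the libraries with the highest green tissue sums, beside 10.1 CPM in AN0-2 and 0.716 to 2.24 CPM in the others.

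Genes for kinases known in other plants to phosphorylate nitrate reductase differed little. The 9 calcium-dependent and SNF1-related kinase genes had median log2 fold changes of 0.07 (AN0 against AN1), -0.02 (AN2 against AN1) and -0.17 (AN2 against AN0). Of them 0 were called by edgeR or DESeq2, with 0 at an unadjusted p under 0.05. With 34G and 35G added, the 14-3-3 list had 4 genes and a median of -0.47 for AN2 against AN0, with 0 called by edgeR or DESeq2 and 1 at an unadjusted p under 0.05. In the list of 5 genes for carbon skeletons, 3 were positive for AN0 against AN1 (median 0.27, beside 0.02 over all genes). For AN2 against AN1, 4 were negative (median -0.14, beside 0.02), and for AN2 against AN0, 2 were negative (median 0.05, beside 0.01). Of the 5, edgeR called 0 in each comparison. The most abundant, LOC102598696 (aspP), was listed by its name alone, with no product name to check it. It had 31.5, 42.6 and 20.9 CPM in AN2 and 39.7, 77.0 and 56.9 CPM in AN0 (log2 fold change -0.87 ± 0.31, edgeR adjusted p = 0.154). For AN2 against AN1 and AN2 against AN0, DESeq2 called 5.37% and 11.8% of the genes it tested. Of the 5 it called 1 in each, LOC102591072. This gene, a kinase of phosphoenolpyruvate carboxylase (PPCK1b), had 22.8, 29.5 and 30.0 CPM in AN2 and 11.0, 9.47 and 14.7 CPM in AN1 (log2 fold change 1.23 ± 0.24, edgeR adjusted p = 0.0588, DESeq2 adjusted p = 0.000543). In AN0 it had 13.5, 17.2 and 12.2 CPM, below all AN2 libraries (AN2 against AN0 0.94 ± 0.24, edgeR adjusted p = 0.0609, DESeq2 adjusted p = 0.00840). Every AN2 library lay above every AN0 library in 13.0% of genes.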
